A study of Mus musculus with 4 samples.

Results

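The Ly6 surface proteins described here are the products of 6 mouse genes chosen by name: Ly6a, Ly6c1, Ly6c2, Ly6d, Ly6e and Ly6i. The choice was made with earlier results of these data known, so their values are given as a description. Of the 22180 genes that a probe with exactly 1 gene symbol named on the array, 5 were members. Each of the 5 had 1 probe, so no ordering among probes of a gene arose. Ly6a was not named by any probe of the annotation used, by symbol or by Entrez identifier, and is not analysed here.

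RNA came from FoxP3-expressing CD4+ regulatory T cells. The mice had been immunized 7 days earlier, with NP-OVA (a hapten coupled to ovalbumin) in CFA, complete Freund's adjuvant. TFR cells, the follicular regulatory cells, were sorted as PD1+CXCR5+YFP+CD4+, and non-TFR cells as CXCR5-YFP+CD4+, where YFP reports FoxP3. Control mice were FoxP3YFP-Cre (WT) and knockout mice were Prdm1fl/flFoxP3YFP-Cre (KO), so that the Cre and YFP allele at FoxP3 was carried by both. Cre was thus driven from FoxP3, and deletion of the floxed Prdm1 alleles, which encode the repressor Blimp-1, was directed at cells that express it. Each of the 4 groups, made by population and genotype, was 1 Affymetrix Mouse Gene 2.0 ST array. How many mice stood behind an array, and their age, was not stated in the labels.

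Ly6 proteins are small, cysteine-rich proteins that share a three-finger fold and are held on the cell surface by a GPI lipid anchor. Several are induced by interferons, and several serve as markers of blood cell subsets: Ly6C, encoded by Ly6c1 and Ly6c2, is used to divide monocytes and is also carried by memory and some regulatory T cells. Ly6a encodes Sca-1, a marker of stem cells and activated lymphocytes, Ly6e encodes a widely expressed protein also known as Sca-2 or TSA-1, and Ly6d marks early B lineage cells and keratinocytes. Levels below are log2 values after quantile normalization, and a difference of 1 is a 2-fold difference. With 1 array a group there is no spread and no test, and 2-fold is used only as a fixed size for counting. A gene counts as expressed when its mean over the 4 arrays lies above 5.91, the median of all named genes. Ly6c2 and Ly6e passed that limit, and Ly6c1, Ly6d and Ly6i did not. No fold is given where the dimmer of the arrays compared lies below it, since the table holds no detection calls.

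All 6 members lie on chromosome 15 in 1 gene cluster, in the order Ly6d, Ly6e, Ly6i, Ly6a, Ly6c1, Ly6c2. Ly6c1 and Ly6c2 follow each other as protein-coding genes and are near-identical, so that signal on their probes may be shared. The sequences that lead to their transcripts show how alike they are outside the coding part. RefSeq's promoter table of build GRCm38.p6 matched these 2 members, and the 250 bases before the most upstream start site of each are printed 5′ to 3′. The capitals mark the longest run that both share, of 20 bases. Ly6c1 is read from the minus strand of chr15:75048838-75049087 and Ly6c2 from the minus strand of chr15:75111972-75112221.
Ly6c1: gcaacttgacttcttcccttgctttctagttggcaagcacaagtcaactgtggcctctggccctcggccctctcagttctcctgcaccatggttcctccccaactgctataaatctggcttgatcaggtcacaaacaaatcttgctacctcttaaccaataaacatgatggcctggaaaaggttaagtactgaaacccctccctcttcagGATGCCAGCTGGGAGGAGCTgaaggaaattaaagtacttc
Ly6c2: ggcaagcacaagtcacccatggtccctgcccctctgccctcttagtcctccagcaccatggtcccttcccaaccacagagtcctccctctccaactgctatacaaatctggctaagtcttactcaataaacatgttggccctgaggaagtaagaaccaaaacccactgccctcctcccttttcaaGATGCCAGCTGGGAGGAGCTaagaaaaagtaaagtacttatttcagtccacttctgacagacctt

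In a global alignment with free end gaps, 216 bases of these windows were aligned and 164 of them, 75.9%, were identical. Each gene also has a further start site, and the share depends on the pair taken. For the other pairs it ran from 74.7% to 86.0%, over 93 to 182 aligned bases. The shared run lies 40 to 21 bases before the most upstream start site of Ly6c1 and 65 to 46 bases before that of Ly6c2. Both printed windows were searched on both strands for 3 motifs. The interferon-gamma element GAS, spelled TTCNNNGAA, had 0 matches in either, and 7.02% of all 32851 windows of this length held it. A core of the interferon element ISRE, spelled GAAANNGAA, also had 0 matches, against 7.13% of all windows. A core of the Blimp-1 motif, spelled GNGAAAG, which can overlap the ISRE, had 0 matches, against 19.4% of all windows. These letters are thus not in these windows, which says nothing about binding elsewhere.

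Ly6c2 was far lower in TFR cells, whichever the genotype. Its level was 7.25 in TFR and 10.02 in non-TFR cells of control mice, and 6.61 and 9.24 in those of knockout mice. Both non-TFR arrays lay above both TFR arrays, and within each population the knockout array was the lower one. In the array of control non-TFR cells it lay above 93.2% of named genes, and in that of knockout TFR cells above 58.5%. The TFR minus non-TFR difference was -2.77 in control (6.84-fold lower) and -2.64 in knockout mice (6.22-fold lower). In the knockout no named gene had a lower difference. In the control only Ly6c1 did, through a dim TFR value, and none did when values below 4.70, the 25th percentile of named genes, were raised to that floor. The genotype differences were smaller: knockout minus control was -0.64 in TFR cells (1.56-fold lower) and -0.78 in non-TFR cells (1.71-fold lower). Both were short of 2-fold and outside the middle 95% of named genes, which ran from -0.48 to 0.53 in TFR and from -0.43 to 0.58 in non-TFR cells. The comparisons share arrays, so these values are not independent of each other.

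Ly6c1, the other Ly6C gene, was measured well above the limit in 1 array only. Its level was 4.24 in TFR and 7.39 in non-TFR cells of control mice, and 4.90 and 5.72 in those of knockout mice. The control non-TFR array stood apart, and the other 3 arrays lay below the expression limit, the control TFR value above only 16.1% of named genes. TFR minus non-TFR was -3.16 in control mice, a size that is uncertain because the TFR value is not shown to be above background. It was the lowest of all named genes, and -2.70 with the floor at 4.70, where Ly6c2 was lower. In knockout mice it was -0.82, lower than in all but 543 named genes and short of 2-fold. Knockout minus control was -1.68 in non-TFR cells, where only the granzyme gene Gzmb (-1.93) and the microRNA gene Mir1967 (-1.74) were lower. These 2 genes were named after their values were seen. In TFR cells knockout minus control was 0.66, and 0.20 with the floor, between values of 4.24 and 4.90 that are both below the limit and have not been shown to be above background.

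The population differences of the Ly6C genes were set side by side across genotypes. The control population difference minus the knockout one was -2.34 for Ly6c1 and -0.14 for Ly6c2. With the floor the value for Ly6c1 was -1.88. In knockout mice both Ly6c1 values lay below the expression limit, and the non-TFR one only 1.02 above the floor. With the floor, the TFR value could thus lie at most that far below it. Without the floor the size is uncertain, since these values are not shown to be above background. These differences of differences rest on 4 single arrays and were not tested. Fewer cells carrying a transcript and less of it per cell cannot be told apart in RNA from sorted pools.

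**Figure D1:**
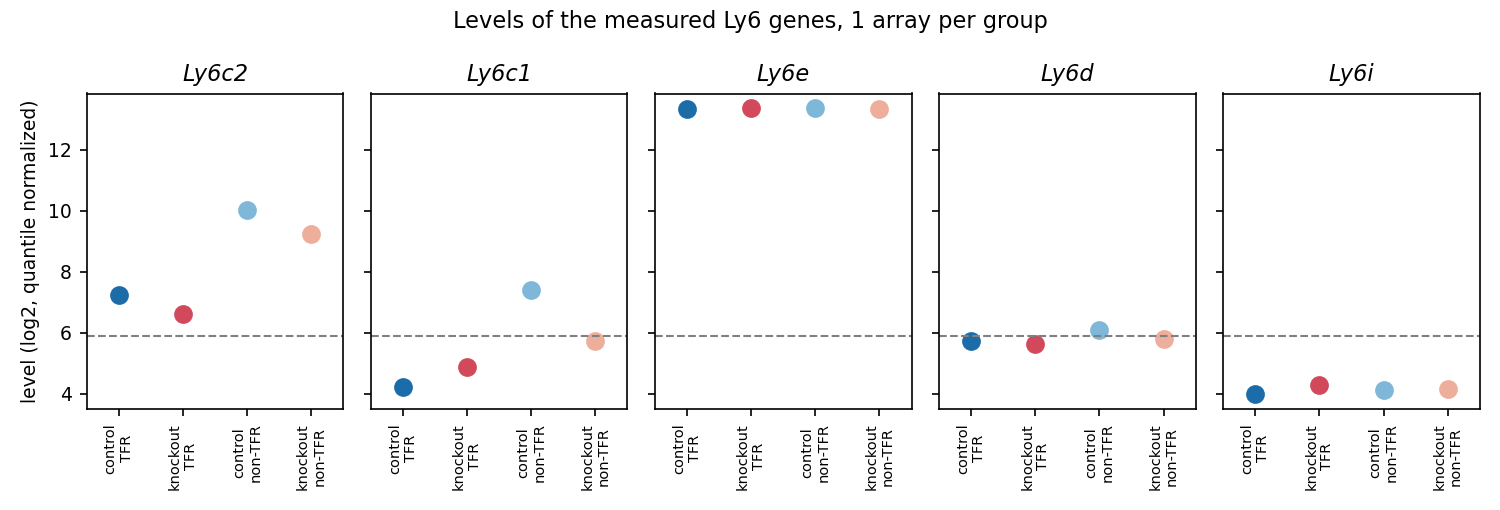
Level of each measured Ly6 gene (y axis, log2 after quantile normalization) in the 4 arrays (x axis, 1 point per array), with the dashed line at the expression limit of 5.91. Ly6c2 runs from 6.61 to 10.02 and Ly6c1 from 4.24 to 7.39 with both non-TFR points on top, whereas Ly6e stays at 13.35 to 13.38 and Ly6d and Ly6i stay near or below the line.

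Ly6e, the broadly expressed member, was among the brightest genes of every array and nearly constant. Its level was 13.36 in TFR and 13.37 in non-TFR cells of control mice, and 13.38 and 13.35 in those of knockout mice. The arrays overlapped almost fully, over a range of 0.029, and only 0.0766% of named genes had a smaller range. Quantile normalization gives like values to a gene of like rank in each array, so part of this small range may come from that step. The deposited values were 13.40 in TFR and 13.34 in non-TFR cells of both genotypes. Between 11 and 14 named genes were brighter in each array, and Ly6e lay 0.38 to 0.43 below the brightest. Whether its probe was near saturation is not given in the sources used here. Its 4 differences lay between -0.021 and 0.029, and each changed sign in the deposited values or with another scaling, so Ly6e has no direction here.

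Ly6d, the early B lineage marker, lay close to the expression limit in every array. Its level was 5.73 in TFR and 6.09 in non-TFR cells of control mice, and 5.64 and 5.80 in those of knockout mice. The highest value was again that of control non-TFR cells, but the whole range was 0.44, and 53.9% of named genes had a smaller one. TFR minus non-TFR was -0.36 in control and -0.16 in knockout mice, and knockout minus control was -0.09 in TFR and -0.29 in non-TFR cells. All 4 values lay within the middle 95% of named genes.

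Ly6i, a close relative of the Ly6C genes, was dim throughout. Its level was 3.98 in TFR and 4.13 in non-TFR cells of control mice, and 4.28 and 4.16 in those of knockout mice. These values lay above 12.1% to 17.0% of named genes, and no array stood apart. The differences ran from -0.15 to 0.29, between values not shown to be above background, and no direction is read from them.

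Across the 5 measured members, 2 had a TFR value at least 2-fold below the non-TFR one in control mice, Ly6c1 and Ly6c2, and none was 2-fold higher. Of all named genes 1.18% were at least 2-fold lower in that comparison and 2.69% higher. In knockout mice 1 member, Ly6c2, was at least 2-fold lower and none higher, against 1.18% and 2.23% of named genes. For knockout minus control, 0 members were at least 2-fold apart in TFR cells, where 0.451% of named genes were. In non-TFR cells Ly6c1 alone was at least 2-fold lower, against 0.0766% of named genes, and 0.509% were that far apart in either direction. The members were chosen with these contrasts known, so nothing is read from the counts. The median of the 5 differences was -0.36 and -0.16 between populations in control and knockout mice, and 0.02 and -0.29 between genotypes in TFR and non-TFR cells. The medians over all named genes lay between -8.1e-05 and 0.03.

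**Figure D2:**
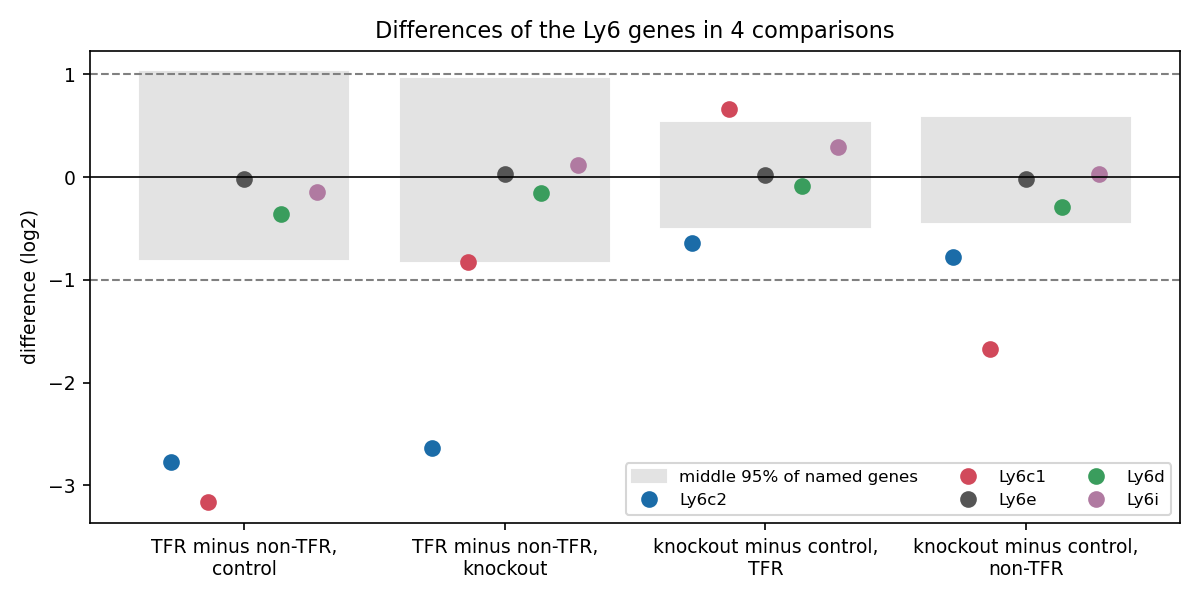
Difference of each Ly6 gene (y axis, log2) in the 4 comparisons (x axis), with points for genes, grey boxes for the middle 95% of named genes and dashed lines at 2-fold. Ly6c2 lies at -2.77 and -2.64 between populations, Ly6c1 at -3.16 in control and -0.82 in knockout mice and at -1.68 between genotypes in non-TFR cells, and the other members lie inside the boxes.

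The genes beside them on chromosome 15 had smaller differences between populations than Ly6c2, and than Ly6c1 in control mice, of either sign. In knockout mice Ly6a2 (1.07), Lynx1 (-1.04), Ly6g (0.93) and Ly6k (-0.92) exceeded Ly6c1 (-0.82) in size. Taking the protein-coding genes from the first member to the last with 5 more on each side, 15 measured genes were not members, 6 of them expressed. None of the 15 was at least 2-fold apart between TFR and non-TFR cells of control mice, and 2 were in knockout mice. Of all named genes 1.18% were at least 2-fold lower in each genotype. At least 2-fold higher were 2.69% in control and 2.23% in knockout mice. Nothing is read from counts over so few genes. Ly6a2, which follows Ly6c2 directly, had levels of 6.23 in TFR and 6.06 in non-TFR cells of control mice, and 6.66 and 5.59 in those of knockout mice. Its TFR minus non-TFR difference was 0.16 in control and 1.07 in knockout mice, opposite in sign to that of Ly6c2. Ly6g, which encodes the neutrophil marker Ly6G and comes next, lay below the limit in every array, between 4.49 and 5.42.

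Lynx1, a modulator of acetylcholine receptors, had levels of 6.24 in TFR and 6.89 in non-TFR cells of control mice, and 5.85 and 6.90 in those of knockout mice. Its population difference was -0.65 in control and -1.04 in knockout mice. Ly6k, known from the testis, was also lower in TFR cells, at -0.72 and -0.92. Ly6m was higher in TFR cells, by 0.70 and 0.56. Signs along the cluster thus differed from gene to gene.

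**Figure D3:**
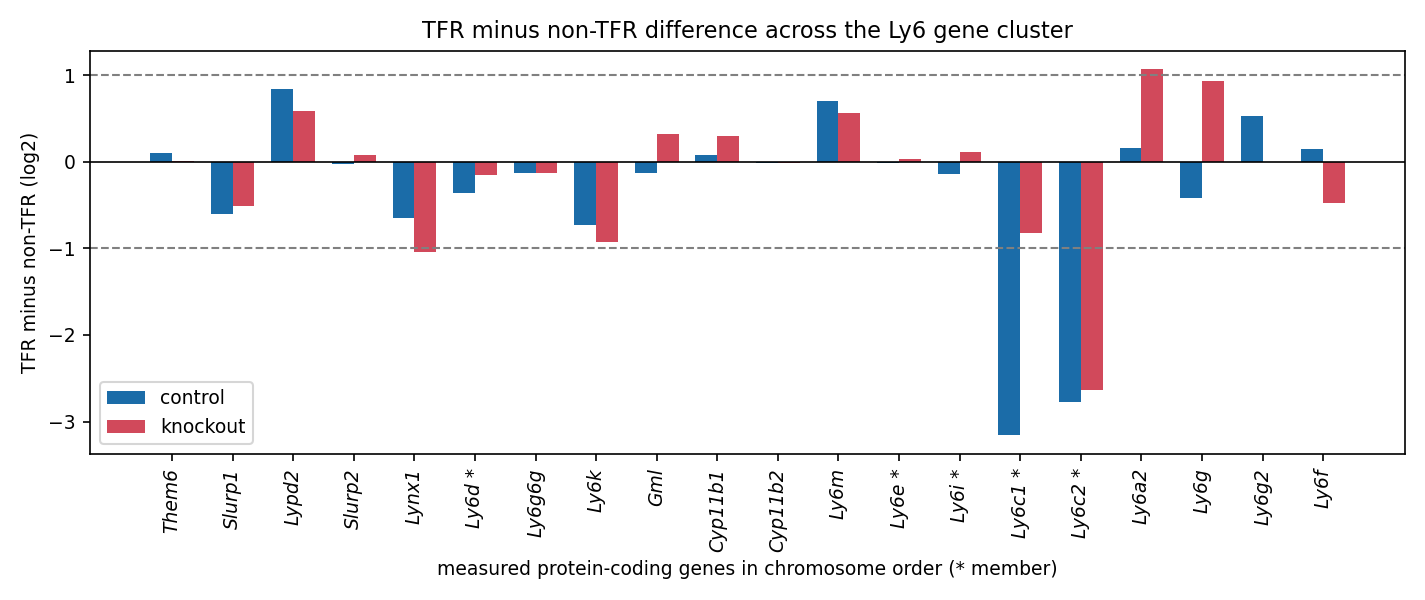
TFR minus non-TFR difference (y axis, log2) of the 20 measured protein-coding genes of the cluster and its flanks in chromosome order (x axis, equal spacing, asterisks for members), with bars for control and knockout mice and dashed lines at 2-fold. Ly6c1 at -3.16 and Ly6c2 at -2.77 extend far below the line in control mice, while Ly6a2, next to Ly6c2, lies at 0.16 and, in knockout mice, at 1.07.

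The wider Ly6/uPAR family, which shares the three-finger fold, was mostly dim: of 37 measured genes outside the members 12 were expressed. The family's median difference between populations was 0.12 in control mice. In TFR cells there 1 of the 37 was at least 2-fold lower and none 2-fold higher, against 1.18% and 2.69% of named genes. That gene was Plaur, the urokinase receptor, with levels of 6.24 in TFR and 7.45 in non-TFR cells of control mice, and 6.06 and 6.70 in those of knockout mice. Its population difference was -1.22 in control and -0.63 in knockout mice, and knockout minus control was -0.76 in non-TFR cells. In knockout mice Lynx1 was 2-fold lower and Ly6a2 2-fold higher, against 1.18% and 2.23% of named genes, with a family median of -0.01. For both genes the dimmer array lay below the expression limit. Between genotypes no gene of the family was 2-fold apart, against 0.451% of named genes in TFR and 0.509% in non-TFR cells. Among its expressed genes Spaca4, a sperm surface protein, had the largest genotype difference in TFR cells at -0.63.

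Genes that make and attach the GPI anchor, which Ly6 proteins need to reach the cell surface, differed little. All 26 measured genes were expressed, none was 2-fold apart in any of the 4 comparisons, and their medians lay between 0.02 and 0.07. Gpaa1, a subunit of the transamidase that attaches the anchor, had the largest control population difference at 0.83. Among 23 other measured GPI-anchored proteins, 1 was at least 2-fold lower in TFR cells of each genotype, against 1.18% of named genes. At least 2-fold higher in knockout mice were 2 that lie below the limit, Cd109 (1.68) and Gfra1 (1.00), against 2.23%. The lower one was Cd55, the complement decay-accelerating factor, with levels of 6.66 in TFR and 8.22 in non-TFR cells of control mice, and 6.32 and 7.70 in those of knockout mice. Cd55 was -1.56 in control and -1.38 in knockout mice, and both non-TFR arrays lay above both TFR arrays, as for Ly6c2. Nt5e, the ectoenzyme CD73, was 0.79 and 0.36 higher in TFR cells.

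Several Ly6 genes are interferon-induced, and a list of interferon response genes was set beside them. Of 34 measured genes 26 were lower in TFR cells of control mice. At least 2-fold lower was 1 of them, against 1.18% of all named genes. The list's median was -0.21, against 0.01 over all named genes. In knockout mice 30 were lower and 3 passed 2-fold, against 1.18% of all named genes. The median there was -0.39, against -8.1e-05 over all named genes. Oas2, an antiviral synthetase, was at -1.47 and -1.33, and the guanylate-binding protein Gbp7 at -0.68 and -1.52. Knockout minus control had a list median of -0.26 in TFR and -0.03 in non-TFR cells.

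Ly6C is carried by part of the resting regulatory cells, and the naive and resting gene list leaned the same way between populations. Of 16 measured genes 15 were lower in each genotype, 5 at least 2-fold in control and 8 in knockout mice. Of all named genes 1.18% were at least 2-fold lower in each genotype. The list's medians were -0.75 and -1.06, against 0.01 and -8.1e-05 over all named genes. Knockout minus control had list medians of -0.36 in TFR and -0.35 in non-TFR cells, with 14 of 16 genes lower in each. The medians over all named genes were 0.01 and 0.03. Effector Treg genes had TFR minus non-TFR medians of 0.68 in control and 0.14 in knockout mice. At least 2-fold higher were 10 and 2 of 28, against 2.69% and 2.23% of all named genes. In knockout mice 2 effector Treg genes were at least 2-fold lower, Gzmb (-1.47) and the integrin Itgae (-1.43), and in control mice 0. Of all named genes 1.18% were at least 2-fold lower in each genotype.

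The genes whose 4 values were most like those of Ly6c2 were sought among the 11089 other expressed genes, by the Euclidean distance of values centred on each gene's mean over the 4 arrays. The 5 nearest were Dapl1 (distance 0.61), Ifit1bl1 (0.77), the chromatin organizer Satb1 (0.82), the sorting receptor Sorcs2 (0.86) and the adenylate cyclase Adcy6 (0.89). Satb1 had levels of 8.70 in TFR and 10.55 in non-TFR cells of control mice, and 8.02 and 9.97 in those of knockout mice. All 5 were lower in TFR cells of both genotypes and lower in the knockout array of both populations. They were chosen for being like Ly6c2, so shared directions follow from the choice and are not a separate result. Dapl1 and Satb1 are members of the naive and resting list, which holds 16 expressed genes, and nothing is read from this. Ly6c1 lay at a distance of 1.33 from Ly6c2, with 30 of 22179 named genes nearer to Ly6c2. Ly6d, Ly6e and Ly6i were 2.50 to 2.83 away. The likeness is over 4 arrays only and was not tested. The nearest genes to Ly6e, Gabpa, Erich5, Ppm1m, Cep250 and Otud5, at distances of 0.015 to 0.024, are other nearly constant genes.

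**Figure D4:**
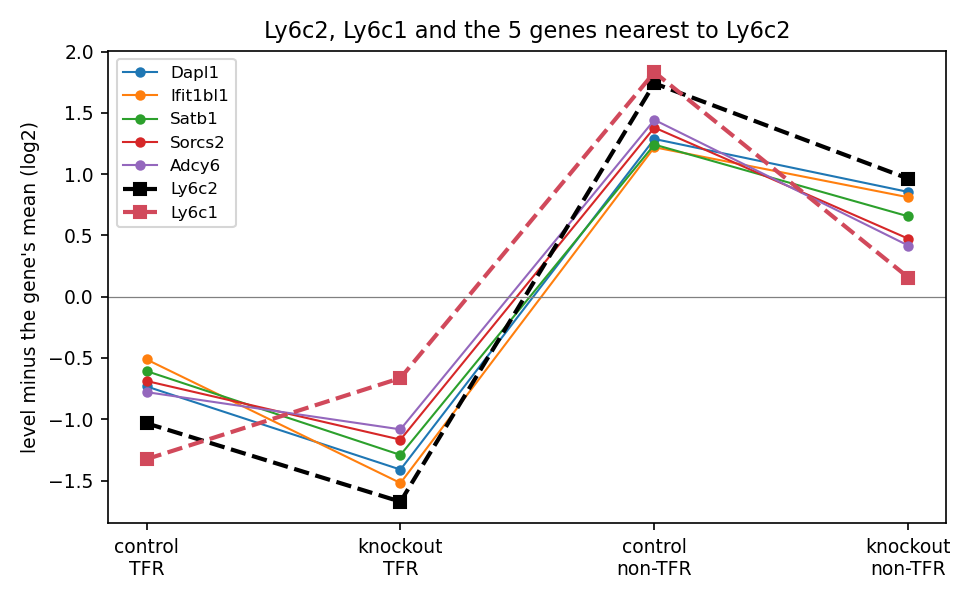
Level minus the gene's own mean (y axis, log2) in the 4 arrays (x axis) for Ly6c2, Ly6c1 and the 5 expressed genes nearest to Ly6c2. All lie lower in TFR than in non-TFR cells, and Ly6c1 departs from Ly6c2 in the knockout arrays, with a distance of 1.33 against 0.61 for Dapl1.

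The sorted cells carried their defining genes: Foxp3 lay between 11.87 and 12.45, and Cd4 between 11.02 and 11.33. Prdm1, the targeted gene, had a value of 8.21 in TFR and 7.80 in non-TFR cells of control mice, and 7.32 and 7.59 in those of knockout mice. Knockout minus control for Prdm1 was -0.89 in TFR and -0.21 in non-TFR cells. The gate genes Cxcr5 and Pdcd1 were 1.46 and 2.41 higher in TFR cells of the control, and 1.49 and 1.72 higher in those of the knockout. For these 2 genes knockout minus control was 0.87 and 0.82 in TFR and 0.84 and 1.52 in non-TFR cells. Because Ly6C is abundant on monocytes, neutrophils, plasmacytoid dendritic cells and endothelium, markers of such cells were read from the same arrays. Of 11 measured monocyte and macrophage markers 10 lay below the expression limit, the exception being Cd68, and the list's summed linear level was 601 in TFR and 534 in non-TFR cells of control mice, and 886 and 542 in those of knockout mice. Of 12 neutrophil markers 11 lay below it, with sums of 460 and 457 in control and 442 and 397 in knockout mice, TFR cells first. The monocyte list's median level was 4.81 and 5.21 in control and 4.98 and 5.24 in knockout mice, TFR cells first. Its sum and its median level thus ran opposite ways. By gene, 7 of 11 monocyte markers were higher in TFR cells of control and 6 in knockout mice, with median differences of 0.15 and 0.03. The part of both lists in the result was not tested. Endothelial and stromal markers, 8 of 12 below the limit, summed to 1408 and 1815 in control and 1502 and 1659 in knockout mice in the same order, and dendritic markers, 8 of 11 below it, to 2664, 3458, 2137 and 3022. In the latter lists both sums were higher in non-TFR cells. Their brightest genes were Pecam1 (9.84, 10.37, 9.94 and 10.17) and Bst2 (10.87, 11.44, 10.48 and 11.15), which T cells also express. Most dendritic markers went the other way: 7 of 11 were higher in TFR cells of control and 6 in knockout mice. Their median differences were 0.13 and 0.15. Of endothelial and stromal markers 5 of 12 were higher in TFR cells of each genotype, with medians of -0.06 and -0.01. The part of these lists in the result was not tested. NK and CD8 T cell markers, 7 of 9 below the limit, summed to 776, 957, 743 and 915, also higher in non-TFR cells. The brightest was Cd8b1 (8.73, 9.42, 8.73 and 9.29). By gene, 4 of 9 were higher in TFR cells of control and 5 in knockout mice, with median differences of -0.11 and 0.17. At least 2-fold higher in TFR cells were 2 in control and 1 in knockout mice, against 2.69% and 2.23% of named genes. At least 2-fold lower were 0 and 1, against 1.18% in each genotype. All markers so counted had means below the expression limit. The part of this list was not tested either. B cell markers, 8 of 10 below the limit, summed to 902, 580, 1205 and 711, higher in TFR cells. By gene, 5 were higher and 5 lower in TFR cells of each genotype, with median differences of -0.02 and -0.01. The largest difference was that of Cd22, at 2.28 in control and 2.22 in knockout mice. Plasma cell markers, 4 of 10 below the limit, summed to 2852, 2325, 2805 and 2411, also higher in TFR cells. Of these, 8 of 10 were higher in control and 7 in knockout mice, with medians of 0.20 and 0.14.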

How the data were processed

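The authors deposited 1 log2 value per transcript cluster (probe) and array for 41345 probes. Their range, 2.23 to 13.8, was taken to mean a log2 scale. The submitters' processing notes name MAS5 without a role, and how background was corrected and probes summarized is not given in the sources used here. Deposited medians spanned 0.105, so all probes were quantile normalized (limma 3.58.1, R 4.3.3). The platform annotation gave 23521 probes 1 gene, 1814 several and 16010 none. Of the first, 23328 matched the RefSeq gene table by Entrez identifier. The brightest probe stood for a gene. Each group was 1 array, assigned by title, so differences have no test and the number of arrays limits precision. The members and gene lists were chosen with earlier results of these data known. Bambi, Tnfrsf10b and Treml1 were taken out of lists after their values were seen, because they do not belong to the list's class. Named genes were all members, the target and gate genes, up to 4 expressed genes of largest difference per list and comparison, and the 5 nearest patterns. Cd109, Gfra1, Cd8b1 and Cd22 were named, and Ly6a2 and Ly6g followed further as neighbours of Ly6c2, once their values were known. The counting and distance steps were tested on simulated data. Alternatives were the deposited values, cyclic loess, 75th percentile scaling, the mean of a gene's probes, a floor and 2 filters on dim genes. No build is given for the probes, and gene order is that of RefSeq GRCm38.p6.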

Additional observations from a re-analysis of the deposited data

Results flagged for a closer look

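Ly6c1 had opposite genotype differences in the populations: knockout minus control was 0.66 in TFR cells and -1.68 in non-TFR cells. Only the second passed 2-fold, and the first lies between values below the expression limit. Ly6e also had opposite signs, 0.02 in TFR and -0.02 in non-TFR cells between genotypes, and -0.02 in control and 0.03 in knockout mice between populations. Ly6i had TFR minus non-TFR differences of -0.15 in control and 0.12 in knockout mice. None of these differences between groups was tested, since each value is that of 2 single arrays, and those of Ly6e and Ly6i are small.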

How the results depend on the processing

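With 1 array a group no replicate could be left out. No paired analysis was possible because each group holds 1 array. The 7 alternatives gave 116 values for the 20 member differences, and all 116 lay on the same side of 2-fold as the reported value. Part of that was fixed in advance. The mean of a gene's probes could not change a value, since each member had 1 probe. The 2 filters only selected members and left their values as they were. In 6 of the 116 the sign changed, all for Ly6e, whose reported differences were at most 0.029 in size. The number of members at least 2-fold apart was unchanged by the scaling, probe and floor alternatives in the 4 comparisons. When only members above the median or above the 75th percentile of named genes were counted, 2 members remained. The count for TFR against non-TFR cells of control mice was then 1 in place of 2, and that for the genotypes in non-TFR cells 0 in place of 1, because Ly6c1 lies below both limits. The floor moved the control population difference of Ly6c1 from -3.16 to -2.70. In the deposited values the median of all named genes was 0.11 in the control and 0.12 in the knockout population comparison. The table holds no detection calls, so signal over background could not be judged.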
